A study of Rattus norvegicus with 18 samples.

Results

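The glucocorticoid receptor gene Nr3c1 and 7 genes known for their link to it (Fkbp5, Tsc22d3, Sgk1, Hsd11b1, Zbtb16, Mt1 and Dusp1) were followed in rat liver. They were taken by gene symbol in the platform annotation, and each gene was read at the probe set with the highest mean over the arrays. Of the 8 genes, 7 had at least 1 probe set naming that symbol alone, 10 probe sets in all, among 14217 genes and 31099 probe sets. Zbtb16 was not analysed here. The set was chosen by the level of Nr3c1, which was lower with the extract than with the high fat diet alone. The levels of Nr3c1, and the comparison between the high fat groups for every gene of the set, are therefore descriptions with no test.

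The livers came from adult male Sprague Dawley rats fed for 8 weeks and fasted overnight before the tissue was taken. The control animals ate chow, the HFD animals a high fat diet, and the HFD+PE animals that diet plus pomegranate skin extract, dosed at 150 mg/kg/day. The labels call the HFD livers fatty, and those of the other groups normal. The sources used here give neither the composition of the diet nor any vehicle for the extract, and no group received the extract on chow. Each group had 6 arrays, but 1 pair in each group (chow 3 with 4, HFD 1 with 2, HFD+PE 3 with 4) differed by over 2 log2 units in 0 probe sets, against 18 to 109 in the other 150 pairs of arrays. The arrays of each such pair were averaged, an inference from the values, and n = 5 animals per group. The SD of the difference over probe sets was 0.1168 for HFD 1 with 2 and 0.2153 for chow 3 with 4. For HFD+PE 3 with 4 it was 0.2598, no lower than for HFD 3 with 5 (0.2596), which were not averaged. That pair is therefore the least certain. The hepatocyte genes Alb, Ttr and Apob lay at 14.9 to 15, 14.1 to 14.4 and 13.7 to 13.9 on the log2 scale in all animals, as fits the liver label. The arrays also fell into a high and a low set by the hybridization control probe sets (mean log2 signal 12.35 to 12.92 on 5 arrays and 11.40 to 11.84 on 13). Of the high-set arrays, 3 were from chow, 2 from HFD+PE and 0 from HFD. Values within the low set therefore stand beside the results of most members. The low-set arrays cover 3 chow, 5 HFD and 4 HFD+PE animals. The wider gene lists and the genes named from them were not read within the low set.

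The glucocorticoid receptor is a nuclear receptor that rests in the cytoplasm with the chaperone Hsp90 and its partners. When it binds corticosterone, the main glucocorticoid of the rat, it enters the nucleus and switches genes on at DNA elements or restrains inflammatory genes. In the fasted liver it favours glucose production and amino acid breakdown, and hormone release follows the daily rhythm.

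For the measured genes, RefSeq promoter windows of the 250 bases before a transcription start (rat build GRCr8) were matched by symbol. There were 11 windows for 6 of the genes, and Hsd11b1 had none. Of them, 4 are shown because the levels of Fkbp5 and Tsc22d3 ran together between animals, Mt1 followed the arrays, and Dusp1 varied widely within groups. Capitals mark the motifs found on either strand: the metal response core TGCNCNC, the cyclic AMP element TGACGTCA and the TATA box TATAAA. Adjoining motifs run together.
Mt1, chr19:10832976-10833225, minus strand: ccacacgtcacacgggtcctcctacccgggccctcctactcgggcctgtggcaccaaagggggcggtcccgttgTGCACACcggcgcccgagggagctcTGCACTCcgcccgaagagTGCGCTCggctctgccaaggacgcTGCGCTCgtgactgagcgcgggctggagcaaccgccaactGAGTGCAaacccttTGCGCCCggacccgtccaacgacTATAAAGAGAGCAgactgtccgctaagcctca
Dusp1, chr10:17184603-17184852, plus strand: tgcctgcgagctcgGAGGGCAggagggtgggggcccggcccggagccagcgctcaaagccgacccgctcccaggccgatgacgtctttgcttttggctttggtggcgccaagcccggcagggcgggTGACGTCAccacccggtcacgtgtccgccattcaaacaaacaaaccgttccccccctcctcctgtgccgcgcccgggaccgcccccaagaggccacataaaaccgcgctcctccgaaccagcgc
Fkbp5, chr20:6543556-6543805, minus strand: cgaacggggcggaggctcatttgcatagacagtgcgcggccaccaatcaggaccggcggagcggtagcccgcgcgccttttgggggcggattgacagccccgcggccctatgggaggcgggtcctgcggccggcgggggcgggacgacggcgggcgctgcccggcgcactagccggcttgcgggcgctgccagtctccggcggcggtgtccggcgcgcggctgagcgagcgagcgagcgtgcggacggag
Tsc22d3, chrX:109010035-109010284, minus strand: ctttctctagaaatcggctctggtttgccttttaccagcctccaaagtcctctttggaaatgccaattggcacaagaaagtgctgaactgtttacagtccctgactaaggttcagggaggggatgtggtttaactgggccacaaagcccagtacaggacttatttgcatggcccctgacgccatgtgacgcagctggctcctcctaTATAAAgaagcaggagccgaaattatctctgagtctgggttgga
Mt1 held 7 matches to this loose core, none overlapping another, 26 to 176 bases before the start, with a TATA box at 32. At least 1 such match stood in 43.4% of all 33469 windows of this length, but 7 or more in 20 windows (0.0598%). The cyclic AMP element of Dusp1, 124 bases before the start, stood in 1.59% of windows. A TATA box stood 44 bases before this start of Tsc22d3 and was found in 12.9% of windows. The receptor half-site TGTTCT was in 0 of the 11 windows and in 17.5% of all windows. The full receptor element searched, AGAACA and TGTTCT with 3 bases between, was in 4 of all windows (0.012%). The Fkbp5 window was 76.0% G and C, against a median of 51.2%. A match describes letters and not binding, and elements outside these windows were not searched.

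Nr3c1, the receptor itself, had a log2 level of 9.21 ± 0.11 (SD) in chow, 9.64 ± 0.15 in HFD and 9.25 ± 0.23 in HFD+PE. The chow animals read 9.1, 9.1, 9.35, 9.3 and 9.2. The HFD animals read 9.5, 9.6, 9.5, 9.8 and 9.8. The HFD+PE animals read 8.9, 9.3, 9.15, 9.5 and 9.4. Every HFD animal lay above every chow animal, the chow and HFD+PE animals were interleaved, and the highest HFD+PE animal met the lowest HFD animals at 9.5. HFD and chow animals were apart, in either direction, in 0.521% of all genes, and Nr3c1 was chosen on its levels. HFD minus chow was 0.43 (SE 0.11), or 1.35-fold. HFD+PE minus HFD was -0.39 (SE 0.11), or 1.31-fold lower, and HFD+PE minus chow was 0.04. These comparisons share animals.

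The higher level of Nr3c1 in HFD than in chow was not seen at its second probe set, a dim one with a mean of 4.02. There HFD minus chow was -0.06 and HFD+PE minus chow -0.11. HFD+PE minus HFD kept its sign but was -0.05 (SE 0.10). With the low control set alone, HFD minus chow was 0.37 and HFD+PE minus HFD was -0.32. With the set as a covariate they were 0.28 and -0.30. Because the tissue is bulk liver, fewer cells of a type and less RNA per cell cannot be told apart, here and below.

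**Figure D1:**
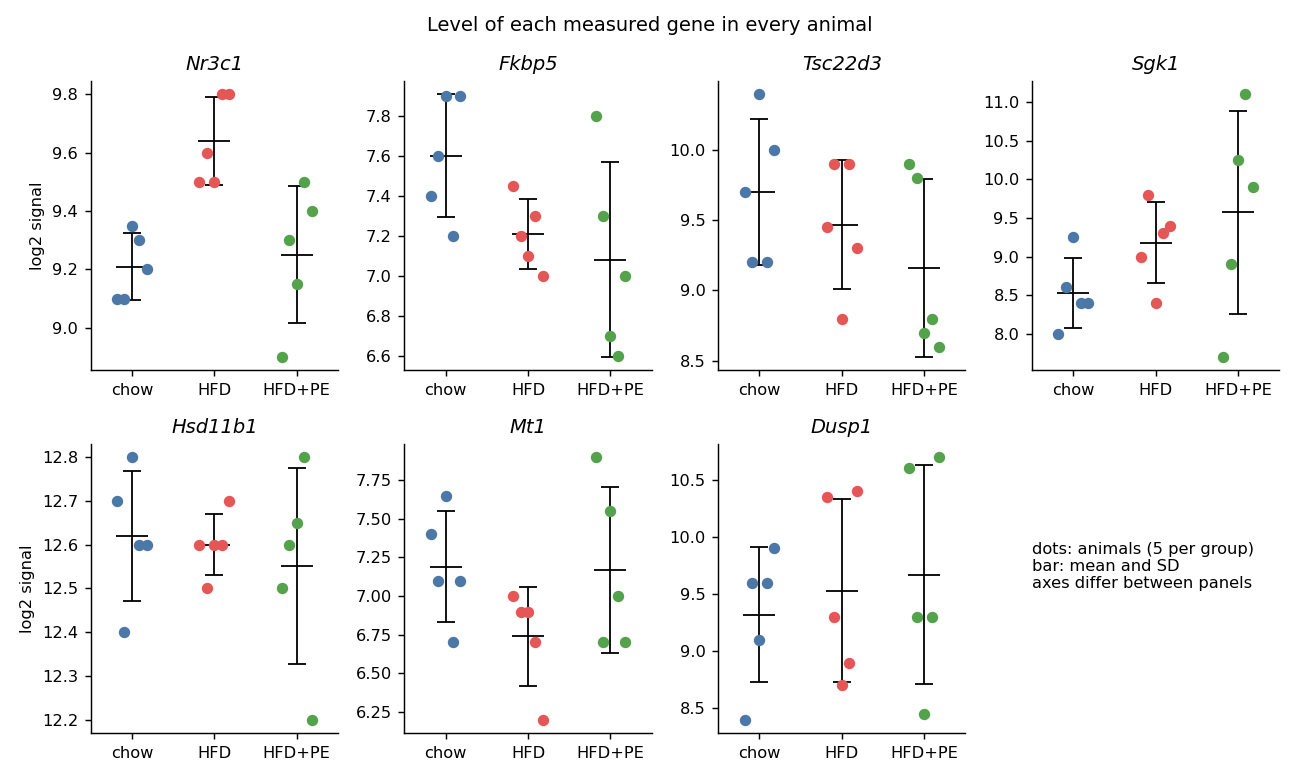
Log2 signal of each of the 7 measured genes (vertical axes, which differ between panels) in chow, HFD and HFD+PE animals; dots are animals and bars the mean and SD of 5. Nr3c1, chosen on its levels, is the gene whose chow and HFD animals do not overlap, as in 0.521% of all genes. The 5 HFD+PE animals spread from 7.7 to 11.1 for Sgk1.

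Hsd11b1, which regenerates active glucocorticoid from its inert form within the hepatocyte, differed between groups by less than its spread between animals. It read 12.7, 12.4, 12.8, 12.6 and 12.6 in chow, 12.6, 12.5, 12.6, 12.6 and 12.7 in HFD, and 12.5, 12.6, 12.65, 12.8 and 12.2 in HFD+PE. All ranges overlapped. HFD minus chow was -0.02 (interval at 95% confidence -0.235 to 0.195) and HFD+PE minus chow -0.07 (-0.285 to 0.145), with limma adjusted p of 0.982 and 0.888.

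Fkbp5, an Hsp90 co-chaperone that is induced by the receptor and lowers its hormone affinity, had lower means in both high fat groups than in chow. The chow animals read 7.4, 7.6, 7.9, 7.2 and 7.9. The HFD animals read 7.45, 7.2, 7.1, 7.3 and 7.0, and the HFD+PE animals 7.8, 7.3, 6.7, 6.6 and 7.0. Most HFD+PE animals were below most chow animals, but HFD+PE 1 was among the highest of all and the groups overlapped. HFD minus chow was -0.39 (SE 0.19, limma adjusted p = 0.670). HFD+PE minus chow was -0.52 (SE 0.19, adjusted p = 0.311, unadjusted below 0.05), or 1.43-fold lower. Without HFD+PE 5 the latter was -0.40 and without HFD+PE 3-4 it was -0.425, both above an unadjusted 0.05 (adjusted p = 0.598 and adjusted p = 0.486). On low-set arrays alone the differences were -0.49 (adjusted p = 0.857) and -0.75 (adjusted p = 0.324), and with the set as a covariate -0.26 and -0.47. At the second probe set they were -0.13 and -0.12. HFD+PE minus HFD was -0.13, with -0.01 without HFD+PE 5 and -0.31 without HFD+PE 1.

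Tsc22d3 (Gilz), a receptor-induced protein that restrains inflammatory signalling, had its lowest mean in HFD+PE. The chow animals read 9.7, 9.2, 10.4, 9.2 and 10, and the HFD animals 9.45, 9.9, 8.8, 9.9 and 9.3. The HFD+PE animals were split, with 9.9 and 9.8 in HFD+PE 1 and 2 and 8.7, 8.8 and 8.6 in the others. The HFD mean minus that of chow was -0.23 (SE 0.30, limma adjusted p = 0.902). It was -0.055 without chow 3-4, -0.0625 without HFD 4, -0.40 on low-set arrays and -0.13 with the set as a covariate. HFD+PE minus chow was -0.54 (SE 0.30, adjusted p = 0.552), -0.89 (adjusted p = 0.520) on low-set arrays and -0.50 with the set as a covariate. HFD+PE minus HFD was -0.31, with -0.495 on low-set arrays.

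Sgk1, a kinase induced by glucocorticoids, ran the other way and varied most in HFD+PE. Its SD was 0.46 in chow, 0.52 in HFD and 1.31 in HFD+PE, while that of Dusp1 was 0.59, 0.80 and 0.96. The chow animals read 8.0, 8.6, 9.25, 8.4 and 8.4, and the HFD animals 9.0, 9.8, 8.4, 9.3 and 9.4. The HFD+PE animals read 7.7, 8.9, 10.25, 11.1 and 9.9, so that this group held both the lowest and the highest animal of the study. The HFD difference from chow was 0.65 (SE 0.46, limma adjusted p = 0.788), 0.48 on low-set arrays and 0.20 with the set as a covariate. HFD+PE minus chow was 1.04 (SE 0.46, adjusted p = 0.419, unadjusted below 0.05), or 2.06-fold, and 0.66 (adjusted p = 0.715) without HFD+PE 5. On low-set arrays it was 1.35 (adjusted p = 0.415) and with the set as a covariate 0.86 (adjusted p = 0.559). HFD+PE minus HFD was 0.39, but 0.0075 without HFD+PE 5, 0.86 without HFD+PE 1 and 0.87 on low-set arrays.

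Dusp1, a phosphatase that switches off MAP kinases and answers both glucocorticoids and acute stress, differed more between animals than between groups. It read 8.4, 9.6, 9.1, 9.6 and 9.9 in chow, 10.35, 9.3, 8.7, 8.9 and 10.4 in HFD, and 10.6, 9.3, 8.45, 9.3 and 10.7 in HFD+PE. In each high fat group 2 animals stood above 10 log2 units and no chow animal did. HFD minus chow was 0.21 (SE 0.43) and HFD+PE minus chow 0.35 (SE 0.43), with limma adjusted p of 0.951 and 0.866. On low-set arrays both were near 0, at -0.0033 and -0.058, but with the set as a covariate they were 0.09 and 0.30. In each group the animal with the highest mean over 11 immediate early genes, at 7.055 in chow 6, 7.286 in HFD 1-2 and 7.182 in HFD+PE 6, was also at or next to the top of its group in Dusp1 (9.9, 10.35 and 10.7). The part of that early response in Dusp1 was not tested.

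Mt1, a metal-binding metallothionein induced by glucocorticoids and by zinc, had its lowest mean in HFD. The chow animals read 7.4, 7.1, 7.65, 6.7 and 7.1, the HFD animals 7.0, 6.9, 6.9, 6.7 and 6.2, and the HFD+PE animals 7.9, 6.7, 7.55, 7.0 and 6.7. The groups overlapped. The difference of HFD from chow was -0.45 (SE 0.23, limma adjusted p = 0.672) and HFD+PE minus chow -0.02 (adjusted p = 0.981). HFD+PE minus HFD was 0.43.

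The level of Mt1 moved with the hybridization control set. It was 7.1 to 8.2 on the 5 high-set arrays and 6.2 to 7.1 on the 13 low-set arrays, a division that 48 genes (0.338%) shared. Both averaged pairs that straddle the sets differed by 1.1, chow 3 above chow 4 and HFD+PE 3 above HFD+PE 4, while HFD 1 and 2, both in the low set, differed by -0.2. Mt1 was the 1 gene of 14217 at least 1 log2 unit higher in both straddling pairs, and 0 genes were that much lower in both. With the set as a covariate, HFD minus chow was -0.10 and HFD+PE minus HFD 0.22; on low-set arrays they were -0.23 and 0.11.

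**Figure D2:**
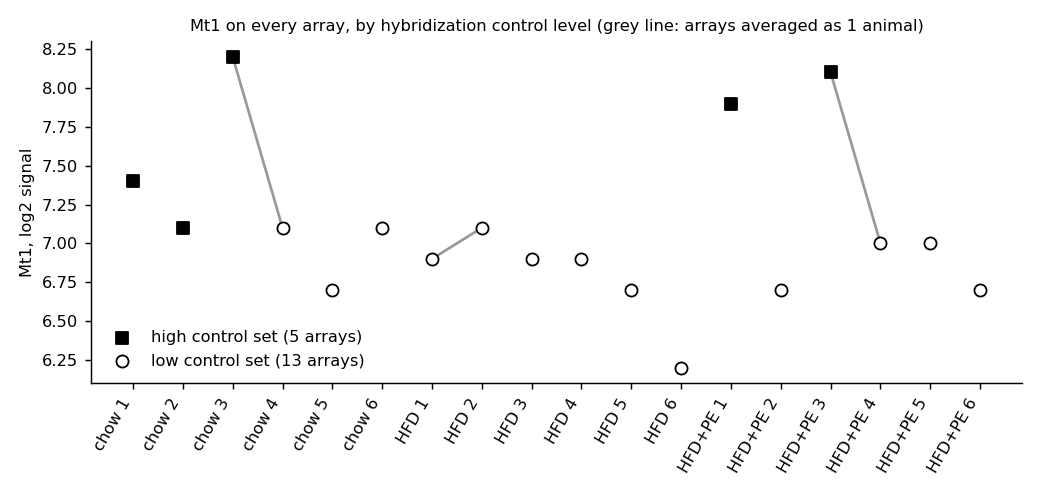
Log2 signal of Mt1 (vertical axis) on each of the 18 arrays, by high (filled squares) or low (open circles) hybridization control set; grey lines join arrays averaged as 1 animal. The high-set arrays lie between 7.1 and 8.2, and the pairs in both sets are 1.1 apart.

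Across the set, 0 of the 6 tested genes passed an adjusted p of 0.05 in either comparison with chow, where 0% of all genes did (limma, smallest adjusted p 0.315 for HFD and 0.104 for HFD+PE). At an unadjusted p of 0.05, 0 of 6 passed in HFD against chow, beside 1088 genes (7.65%). In HFD+PE against chow 2 of 6 passed, Fkbp5 lower and Sgk1 higher, beside 1584 genes (11.1%). Without HFD+PE 5, or without HFD+PE 3-4, that count was 0 of 6. For 0 of these 6 genes were the animals of HFD and chow apart, beside 0.521% of all genes. Nr3c1, whose levels led to its choice, is not counted here. The same count was 0 of 6 in HFD+PE against chow (1.41% of genes) and 0 of 6 in HFD+PE against HFD (0.134%), where 0% of genes passed an adjusted p of 0.05 (384 at an unadjusted 0.05). The plot of differences sets the 3 comparisons side by side.

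**Figure D3:**
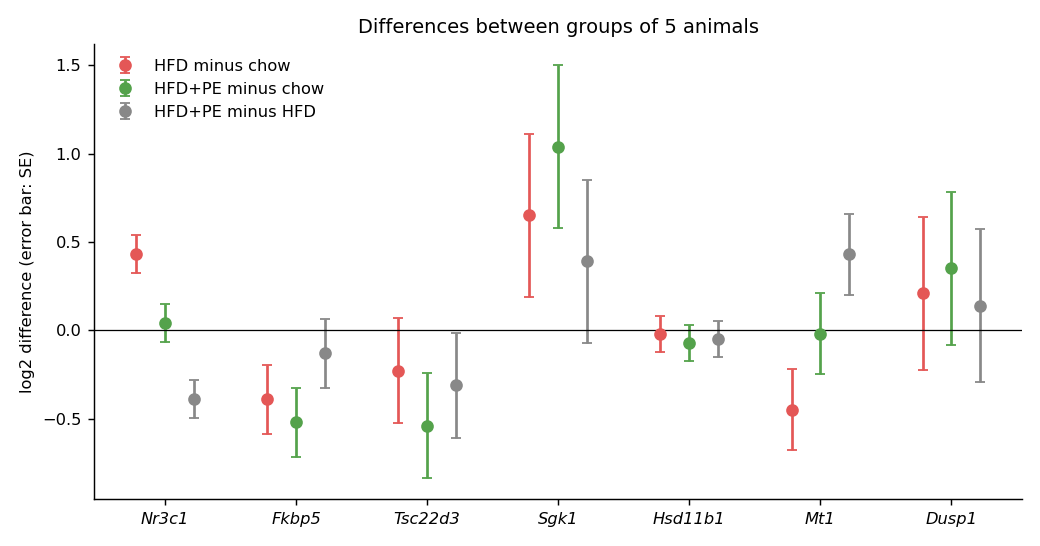
Log2 difference of each measured gene for HFD minus chow, HFD+PE minus chow and HFD+PE minus HFD, with its SE as the error bar; the comparisons share animals. Nr3c1 is at 0.43, 0.04 and -0.39, and Sgk1 has the widest errors (SE 0.46).

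The genes differed in how far animals of 1 group spread. The within-group SD, pooled over the groups, was 0.856 for Sgk1, 0.798 for Dusp1, 0.543 for Tsc22d3, 0.416 for Mt1 and 0.348 for Fkbp5. These values were larger than in 99.5%, 99.3%, 98.2%, 96.2% and 93.7% of genes. The SD of Sgk1 was 1.31 in HFD+PE but 0.46 in chow and 0.52 in HFD. For Mt1, high-set arrays lay above low-set arrays by 0.6 in chow and 1.15 in HFD+PE. The part of the array set in its SD was not tested. Nr3c1 (0.174) and Hsd11b1 (0.160) lay close to the median gene at 0.168.

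Animals of 1 group that were high in Fkbp5 tended to be high in Tsc22d3. Over the 15 animals, with each group's mean removed, Pearson's r was 0.75 (permutation p = 0.006) and Spearman's rho 0.67 (p = 0.0181), and r was 0.70 without HFD+PE 1 and 5 and 0.73 on low-set arrays. For this pair r was 0.78 within chow, 0.43 within HFD and 0.86 within HFD+PE. Of the 15 pairs without Nr3c1, this 1 had p below 0.05, and its p adjusted over all 21 pairs was 0.126. Pairs with Nr3c1 are described with no test. For Nr3c1 and Sgk1, r was 0.72 and rho 0.67. Within chow r was 0.68, within HFD 0.52 and within HFD+PE 0.80, but over all animals it was 0.34 without HFD+PE 1 and 5 and 0.39 on low-set arrays. For Nr3c1 and Mt1, r was -0.67 and rho -0.62, with -0.53 without the same animals, -0.55 on low-set arrays and -0.39 over 18 separate arrays. Within chow that r was 0.049, within HFD -0.81 and within HFD+PE -0.86. The high control set held too few animals for its own value. HFD+PE 1, the high-set animal lowest in Nr3c1 and Sgk1, was the highest of its group in Fkbp5, Tsc22d3 and Mt1.

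**Figure D4:**
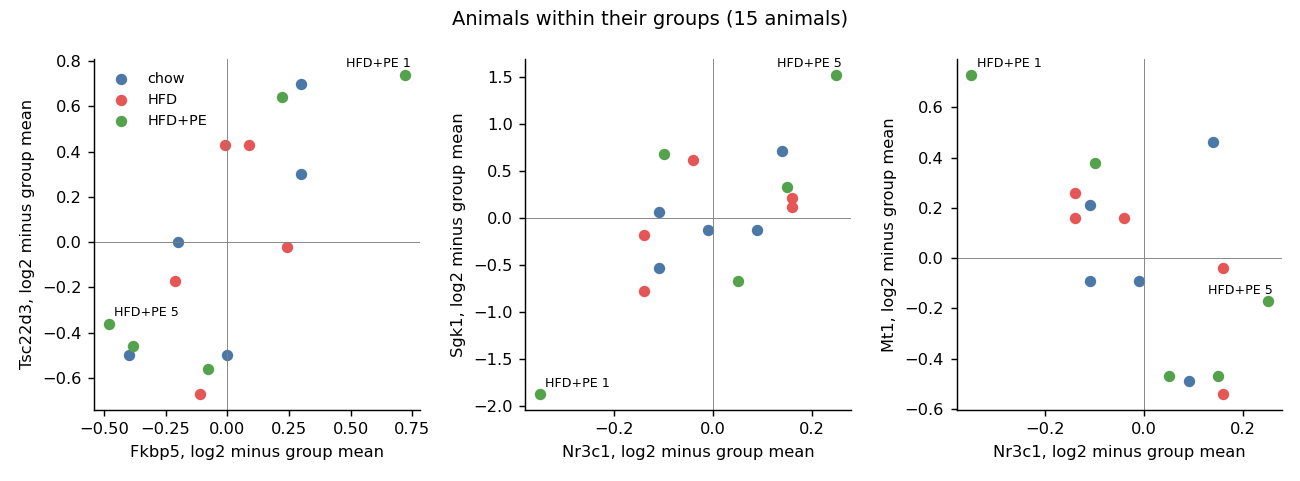
Log2 level minus group mean for Fkbp5 and Tsc22d3, Nr3c1 and Sgk1, and Nr3c1 and Mt1, each dot 1 of 15 animals coloured by group. HFD+PE 1 and 5 lie at the ends of each horizontal axis, and without them r is 0.70, 0.34 and -0.53.

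Among 7069 genes brighter than the median gene, the levels most like Nr3c1 over 15 animals were those of Chmp1b (r = 0.87), Atmin (0.84), Elf2, Lats1 and Ahctf1 (0.82 each). Those most like Fkbp5 were Acer2 (0.93), Tppp (0.90), Ccdc6 (0.89), Bcl6b and Nnmt (0.87 each). They were picked as the highest values, so these are descriptions.

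The wider pathway was read from 6 lists with 68 further measured genes, with no adjustment for the control set. In HFD against chow 29 were higher and 35 lower, with a median of -0.015, and 5 (7.35%) had an unadjusted p below 0.05. In HFD+PE against chow 26 were higher and 40 lower, with a median of -0.04, and 7 (10.3%) had. Both shares were close to those of all genes (7.65% and 11.1%), whose medians were 0 and 0.01, and 0 genes passed an adjusted p of 0.05.

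Among receptors and chaperones, 2 of 10 were lower at an unadjusted p below 0.05 in each comparison with chow, where 3.57% and 5.14% of all genes were, and 0 were higher. Stip1, which hands client receptors from Hsp70 to Hsp90, read 8.2, 8.1, 8.45, 8.1 and 7.9 in chow. It read 8.1, 7.8, 7.5, 7.6 and 7.7 in HFD and 7.6, 7.7, 7.7, 7.8 and 7.7 in HFD+PE, where every animal lay below every chow animal. HFD+PE and chow animals were apart, in either direction, in 1.41% of all genes. Stip1 was named for the smallest p of its list in that comparison. Stip1 differed by -0.41 (SE 0.11, limma adjusted p = 0.528) in HFD and by -0.45 (SE 0.11, adjusted p = 0.134) in HFD+PE. Hsp90ab1, the constitutive cytosolic Hsp90, differed by -0.24 (adjusted p = 0.616) and -0.30 (adjusted p = 0.275), and Dnajb1 and Hspa4 by -0.18 and -0.19 in HFD+PE. Of the 4 genes of glucocorticoid metabolism and binding, 0 passed at an unadjusted 0.05. Serpina6, the plasma corticosteroid-binding globulin, differed by 0.24 and 0.38, and Akr1d1, which inactivates steroids, by 0.29 and 0.15. Of 9 coregulators 0 passed, and the range was -0.15 to 0.17 in HFD+PE.

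Of 17 induced metabolic genes, 1 was lower in HFD, and 1 was higher and 2 were lower in HFD+PE, at an unadjusted p below 0.05. Over all genes, the shares to set beside this list and the next ones were 4.08% higher and 3.57% lower in HFD. In HFD+PE those shares were 6.00% and 5.14%. Angptl4, a fasting-induced inhibitor of lipoprotein lipase, differed by -0.47 (limma adjusted p = 0.578) and -0.62 (adjusted p = 0.222). Glul, which makes glutamine, differed by 0.19 and 0.38 (adjusted p = 0.217), and Ass1, a urea cycle enzyme, by -0.06 and -0.43 (adjusted p = 0.352). Of 19 induced regulators, 1 was higher and 1 lower in HFD, and 1 was lower in HFD+PE. Anxa1, an anti-inflammatory lipid-binding protein, differed by -0.71 (limma adjusted p = 0.426) and -0.66 (adjusted p = 0.168). Per2, a clock repressor with a receptor-bound element, differed by 1.09 (adjusted p = 0.577) in HFD and 0.69 (adjusted p = 0.620) in HFD+PE. Of 9 inflammatory genes repressed by the receptor, 1 was lower in HFD+PE, Vcam1 at -0.32 (limma adjusted p = 0.423), and Icam1 differed by 0.42 (adjusted p = 0.484).

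**Figure D5:**
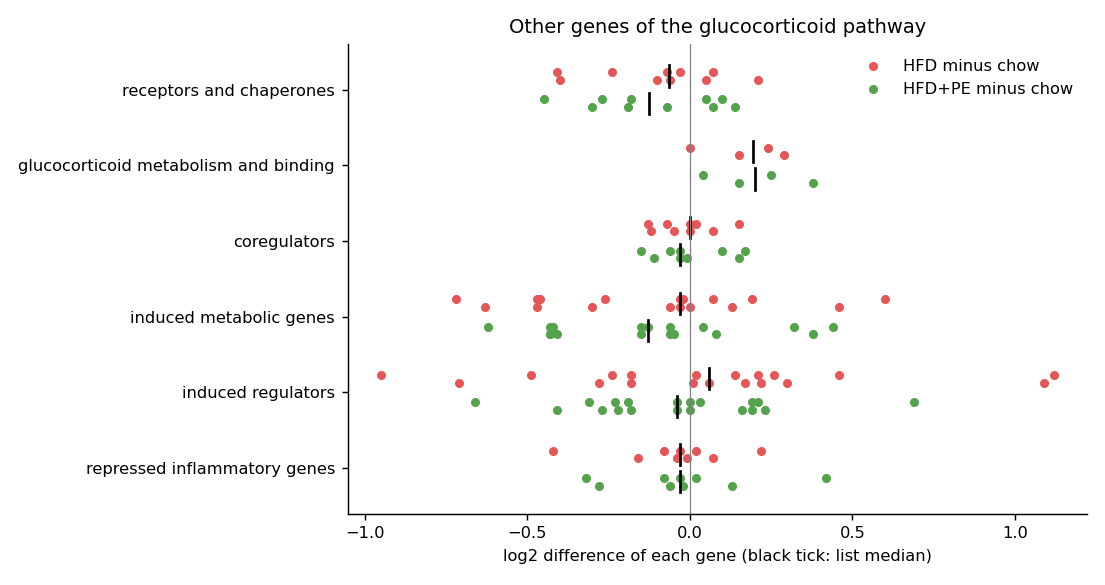
Log2 difference of each of 68 further pathway genes (horizontal axis) for HFD minus chow and HFD+PE minus chow, by list, with the list median as a black tick. The overall medians were -0.015 and -0.04, and single genes lay on both sides of 0 in 5 of the lists.

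Other gene groups moved beside these values, and their part in them was not tested. These gene groups were not adjusted for the control set either. At an unadjusted limma p below 0.05, 6 of 11 clock genes were higher in HFD (4.08% of all genes were) and 5 of 11 in HFD+PE (6.00%), with a list median of 0.48 in both. Bmal1, Npas2, Clock and Cry1 had lower means in both comparisons, and 0 of these 4 passed. Their differences were -0.85, -0.65, -0.15 and -0.09 in HFD, and -0.46, -0.50, -0.11 and -0.01 in HFD+PE. Nr1d2, a clock repressor, differed by 0.52 and 0.48. All 10 macrophage markers had lower means in HFD than in chow (median -0.525, 6 of them below 0.05), and 8 of 10 in HFD+PE (median -0.805, all 8 below 0.05). Of all genes, 47.6% and 46.5% had lower means, and 3.57% and 5.14% were lower at an unadjusted p below 0.05. No gene of these lists passed an adjusted p of 0.05. The mean level over these markers was 8.36 to 9.09 in chow, 7.72 to 8.555 in HFD and 7.52 to 8.40 in HFD+PE. Stellate cell markers had lower means for 10 of 11 genes in both comparisons (medians -0.22 and -0.35), with 3 and 5 below 0.05. Immediate early genes had medians of -0.17 and -0.08. Median differences in HFD and HFD+PE were -0.02 and -0.005 for hepatocyte, -0.16 and -0.11 for endothelial, -0.06 and -0.06 for lymphocyte, 0.01 and -0.03 for cholangiocyte, and -0.405 and -0.295 for erythrocyte markers.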

How the data were processed

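Liver RNA was hybridized to Affymetrix rat arrays. The deposited values are log2 signals, which the authors made with Affymetrix Expression Console and RMA per the submitters' processing notes; the sources used here do not give versions. They are rounded to 1 decimal, run from 2.2 to 15, and have no read depth, so the number of arrays and the rounding limit precision.

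The members and lists were chosen with earlier results of these data known. Control probe sets (57) were left out, 20826 probe sets named 1 gene symbol, 436 several and 9780 none, and the brightest set stood for each of 14217 genes. Probe sets naming several symbols, 1 of them with Mt1, were not used.

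The model was limma 3.58.1 (R 4.3.3), with 1 mean per group over 15 animals, eBayes and Benjamini-Hochberg adjustment over all genes; fold changes are powers of 2 of log2 differences. The script was tested on simulated data. All tests were two-sided. Correlations used 100000 permutations within groups (Python 3.11.15, NumPy 2.4.6), adjusted over 21 pairs, and no p is given for pairs with Nr3c1. The labels call arrays biological replicates. The limma p-values set each group difference against the spread between the 15 animals inferred here, not between the 18 arrays. The replicate numbers were not treated as pairs. Named genes were all members and, of each pathway list, up to 4 genes with the smallest p in HFD+PE against chow and up to 2 in HFD against chow; fewer are printed. Clock genes beyond that rule were chosen after their values were seen. Alternatives were 18 separate arrays, the replicate block, control sets, median centring, the variance prior, dim genes, other probe sets, and each animal left out.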

Additional observations from a re-analysis of the deposited data

Results flagged for a closer look

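Of the 21 groups of 5 animals (7 genes in 3 groups), 0 held an animal whose gap to its neighbour exceeded Dixon's critical value of 0.710 of the range.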

How the results depend on the processing

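None of the 6 tested genes passed an adjusted p of 0.05 against chow under any alternative run, and depth does not apply to arrays: 5 animals per group and dim probe sets are the limits. Of 513 alternative values of member differences, 466 kept their direction and side of an unadjusted 0.05 or, where no test applied, stayed within 1 SD of the main value. Many of these could not move. Leaving out an animal outside the comparison, the variance prior, leaving out dim genes and testing all probe sets keep a log2 difference as it was. Where no test applied, such values stayed by design, so 466 of 513 does not measure robustness. The replicate numbers of the labels were not treated as pairs (4 of 18 pairs correlated over 0.1, and 5 of 18 arrays were closest to their own number). What these counts would be by chance was not worked out. With 18 separate arrays, 145 genes passed an adjusted 0.05 in HFD+PE against chow, and 119 with the replicate block. Beyond what the model fixes, the cause of the shifts below was not tested.

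Members below 0.05 in HFD against chow (0) became 1 with 18 arrays, 2 with the replicate block and 1 on low-set arrays, and ranged from 0 to 2 with an animal left out. The gains came without chow 5, HFD 1-2, HFD+PE 1 or HFD+PE 5. The model estimates 1 spread per gene over the 3 groups. Without HFD+PE 1 or HFD+PE 5 the Fkbp5 difference stayed at -0.39, and its SE went from 0.19 to 0.15 or 0.18. In HFD+PE against chow, 2 members became 3 with 18 arrays, the replicate block, HFD+PE 3 and 4 kept apart, or low-set arrays. Tsc22d3 was the gene gained there. The count fell to 1 with the control set as a covariate and 1 with the trend and robust prior. It ranged from 0 to 3 with an animal left out, and was 1 without chow 1, chow 6 or HFD+PE 6. Sgk1 was the gene lost in each of the 5 settings with a count of 1. It was also lost without chow 2 or chow 5, where Tsc22d3 passed in its place. Genes past an adjusted 0.05 (0) became 1 in HFD and 3 in HFD+PE on low-set arrays. They ranged from 0 to 1 and from 0 to 26 with an animal left out, 26 without HFD+PE 3-4. Genes below an unadjusted 0.05 in HFD against chow went from 1088 to 665 with the covariate.

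Nr3c1 at the second probe set read -0.06 in HFD against chow and -0.05 in HFD+PE against HFD. Among tested genes, signs turned for Mt1 in HFD+PE against chow (0.12 with the covariate, 0.043 with HFD+PE 3 and 4 kept apart, -0.20 to 0.0975 with an animal left out); Dusp1 in HFD against chow (-0.0033 on low-set arrays, -0.02 at the second probe set, -0.02 to 0.42 with an animal left out) and in HFD+PE against chow (-0.058 on low-set arrays); and Hsd11b1 (-0.075 to 0.025 in HFD and -0.13 to 0.0175 in HFD+PE with an animal left out).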
